A study of Mus musculus with 16 samples.

Results

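The family of the epidermal growth factor receptor (EGFR) was followed here through 9 genes: the ligand genes Areg, Ereg, Hbegf, Tgfa, Btc and Nrg1 and the receptor genes Egfr, Erbb2 and Erbb3. They were taken as a list of family genes chosen with earlier results of these data known. All 9 were among the 18922 genes detected in 3 or more kept cells. Cells came from end-stage mammary tumours of untreated FVB/n mice of 2 models. Tumours came from 2 mice per model, but no label ties a fraction or a cell to a mouse, so each model is 1 sample here. WB1P tumours carried WapCre;Brca1F/F;Trp53F/F. WB1P-Myc tumours carried the same alleles, so that both models share the Cre-driven loss of Brca1 and Trp53, and in addition a Cre-activated Myc allele in the Col1a1 locus (Col1a1invCAG-Myc-IRES-Luc). Cre is driven by the promoter of Wap, a milk protein gene of the mammary epithelium, so the alleles are switched in Wap-expressing cells and their progeny and not in the whole animal. Live single cells of 1 sample per model were run on Drop-seq, a droplet method that tags each mRNA molecule at its 3′ end with a unique molecular identifier (UMI), and 4 droplet fractions per model were sequenced.

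EGFR, ERBB2, ERBB3 and ERBB4 are cell-surface tyrosine kinases that work in pairs. Amphiregulin (Areg), epiregulin (Ereg), heparin-binding EGF-like growth factor (Hbegf), transforming growth factor alpha (Tgfa) and betacellulin (Btc) are made as membrane proteins, cut off by metalloproteases and bind EGFR, while neuregulin 1 (Nrg1) binds ERBB3 and ERBB4. ERBB2 has no known ligand of its own and ERBB3 has a weak kinase, so both act as partners. In the mammary gland amphiregulin is known as the estrogen-induced ligand of ductal growth, which acts through EGFR on stromal cells, and in peripheral nerve ERBB2 and ERBB3 are the receptors of Schwann cells for neuregulin.

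The ligand genes Ereg, Areg and Btc are neighbours on chromosome 5 of mm10, with Epgn beside them. Epgn to Btc spans chr5:91027464-91402994, with 45.95 kb between Ereg and Areg and 208.8 kb between Areg and Btc. The 250 bases upstream of the start of Areg and of Btc are shown because these neighbours were carried by different cells below, and those of Tgfa because it was lower together with Areg in the epithelial-like cells of WB1P-Myc. They come from the RefSeq promoter table (GRCm38.p6), which held 5 of the 9 members, and lie at chr5:91139349-91139598 on the plus strand (Areg), chr5:91402995-91403244 on the minus strand (Btc) and chr6:86194972-86195221 on the plus strand (Tgfa). Capitals mark matches, on either strand, to a cAMP response element (TGACGTCA), an E-box (CACGTG), an AP-1 site (TGANTCA, where N is any base) or a GC box (GGGCGG).
Areg: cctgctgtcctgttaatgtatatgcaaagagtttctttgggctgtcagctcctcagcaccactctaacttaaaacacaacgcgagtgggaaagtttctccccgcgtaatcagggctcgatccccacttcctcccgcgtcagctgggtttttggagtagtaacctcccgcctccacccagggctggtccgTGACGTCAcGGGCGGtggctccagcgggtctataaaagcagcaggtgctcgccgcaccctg
Btc: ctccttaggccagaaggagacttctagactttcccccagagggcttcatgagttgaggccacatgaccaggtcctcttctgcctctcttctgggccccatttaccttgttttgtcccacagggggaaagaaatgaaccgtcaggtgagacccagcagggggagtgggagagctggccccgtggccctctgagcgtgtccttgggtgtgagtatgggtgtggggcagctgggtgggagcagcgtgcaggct
Tgfa: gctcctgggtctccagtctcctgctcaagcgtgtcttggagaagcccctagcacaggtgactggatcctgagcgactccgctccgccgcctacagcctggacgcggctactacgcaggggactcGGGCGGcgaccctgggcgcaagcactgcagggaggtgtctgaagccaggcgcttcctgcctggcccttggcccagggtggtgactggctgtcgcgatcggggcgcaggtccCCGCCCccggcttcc
The Areg sequence held 1 cAMP response element, starting 61 bases before the transcription start, and 1 GC box starting 52 bases before it, and the matches did not overlap. The Tgfa sequence held GC boxes starting 126 and 15 bases before its start, and the Btc sequence held none of the 4 motifs. Over all 32851 promoter windows of this length, 1.55% held the cAMP response element, 6.02% the E-box, 6.75% the AP-1 site and 32.7% the GC box. These matches are letters in a window and no measure of binding.

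After filtering, 1307 WB1P cells and 3491 WB1P-Myc cells were left, with a median of 1724 and 2359 UMIs. WB1P fraction 1 stood apart, with 65 kept cells at a median of 887 UMIs, 60 of them epithelial-like, where the other fractions held 394 to 950 cells. Leaving it out changed no count of members past 2-fold. Over the 28 pairs of libraries, 3 barcodes were shared in all and 1 among kept cells. Clustering without the 9 genes gave 7 clusters. Markers named epithelial-like, fibroblast-like, macrophage-like and endothelial-like cells in both models and Schwann-like cells (1127, led by Scrg1, Mbp and S100b among others) in WB1P-Myc, where a cluster of 250 cells led by Slc38a4 and Dlk1 matched no marker list and is called the Dlk1 cluster. The epithelial-like class was made of different clusters: 656 of its 675 WB1P cells lay in a cluster led by Csn3 and Lcn2, and 1060 of its 1069 WB1P-Myc cells in a cluster led by Gpx2 and Gcat, in which 8 epithelial markers were raised but none was among the 10 leading genes. The summed level of the 14 epithelial markers was 7624 CPM (counts-per-million of all UMIs) in WB1P epithelial-like cells (7201 to 11302 over fractions) and 4837 CPM in those of WB1P-Myc (3775 to 6897). In WB1P 13 of them had a UMI, while all did in WB1P-Myc, as in its Schwann-like cells. At a clustering resolution of 0.6 only 352 WB1P-Myc cells (led by Krt79 and Krt17) and 10 in the Csn3-led cluster were named epithelial. Clusters with 550 (led by Gm23935 and Lars2) and 230 (led by Mfng) WB1P-Myc cells stayed unnamed. Areg had 33.7, 9.07 and 1.74 CPM in the 352, 550 and 230 cells, Hbegf 211.0, 232.8 and 68.6 CPM and Erbb3 31.3, 52.9 and 48.6 CPM. Myc itself was at 67.1 CPM (33.6 to 93.6) in WB1P and 198.6 CPM (194.3 to 207.7) in WB1P-Myc epithelial-like cells. Brca1 was at 5.39 and 12.3 CPM and Trp53 at 7.84 and 13.2 CPM, but a 3′ tag can lie outside a deleted part, so these levels do not check the deletions. In the added allele Luc follows Myc, so a 3′ tag can lie outside Myc too, and the Myc levels do not measure this allele.

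A level in CPM is the UMIs of the gene in the pooled cells of a class over all UMIs of those cells, with an exact Poisson 95% interval. Fractions of a sample are technical repeats with no mouse label, so neither their spread nor any interval measures the spread between mice. The models have 1 sample each and were run separately, so model, animal and droplet session cannot be told apart and no test between models was possible. A difference is called past 2-fold when the log2 ratio of WB1P-Myc over WB1P reached 1 in size and the class held at least 50 UMIs of the gene. Comparisons between fractions use those with at least 20 cells of the class.

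**Figure D1:**
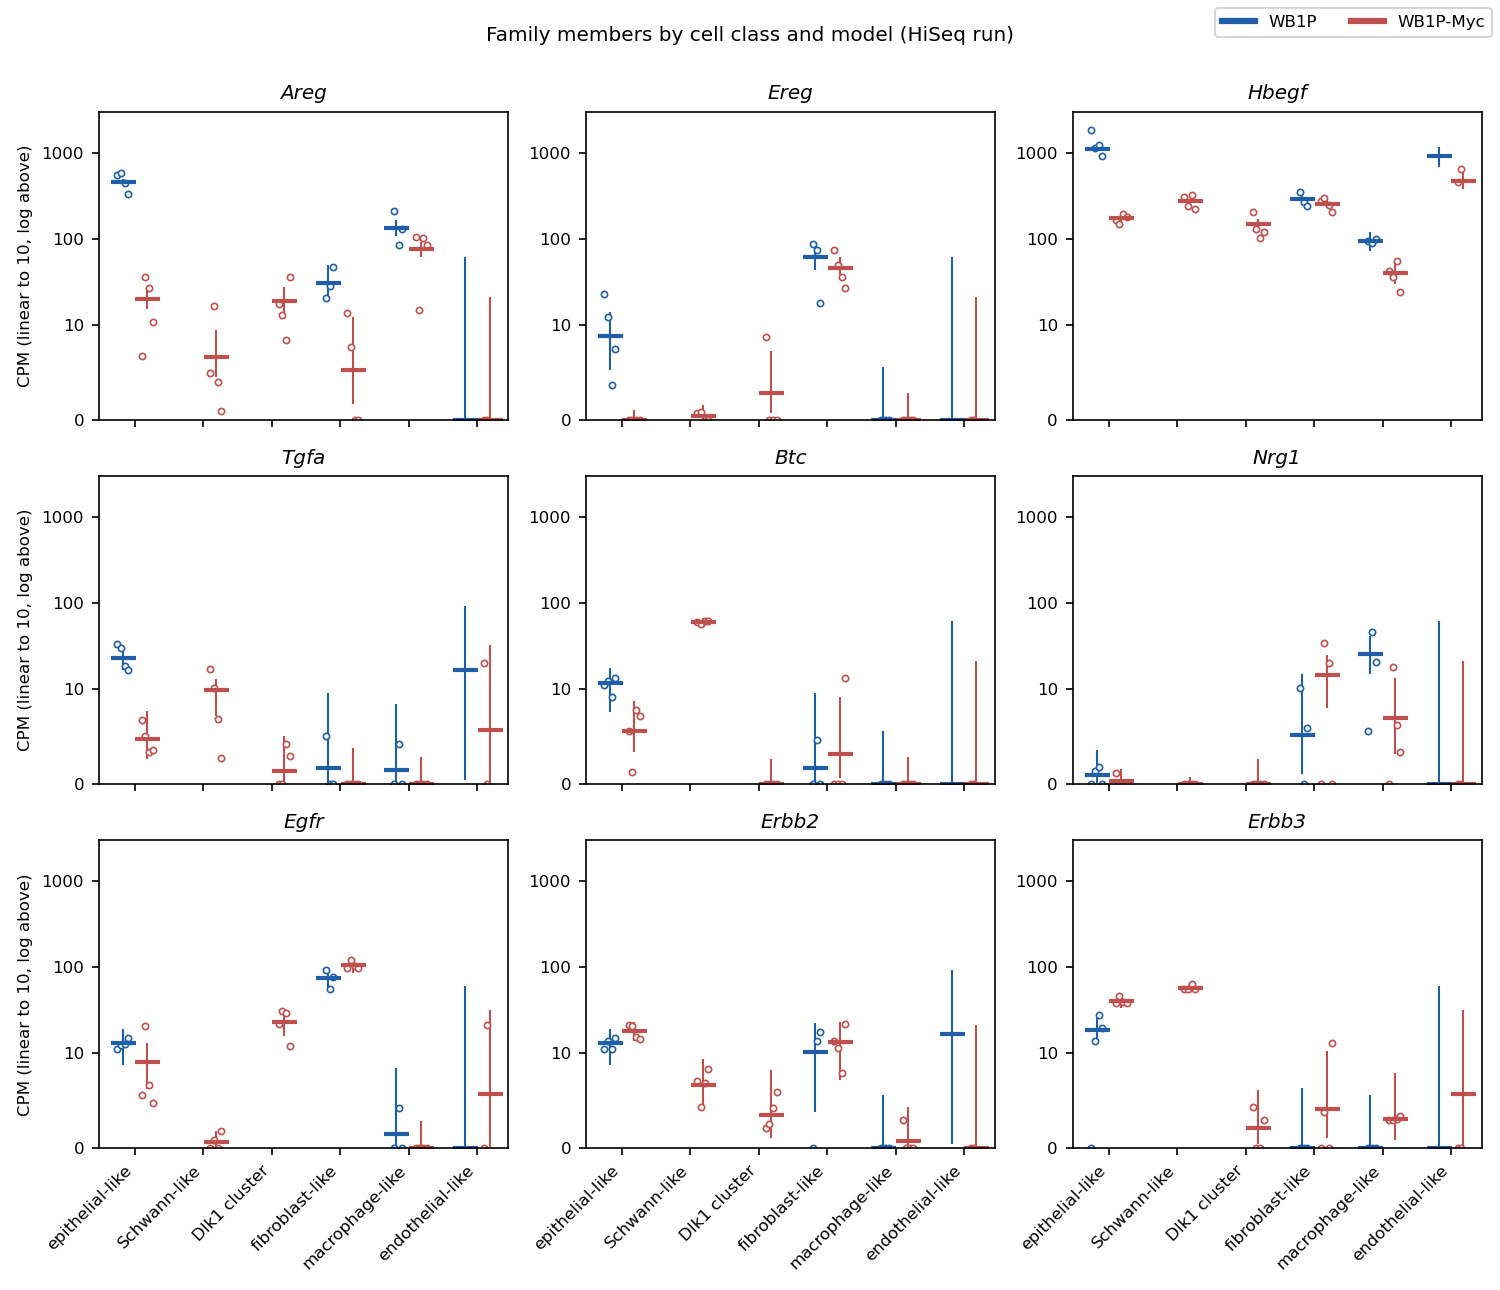
Level of each of the 9 genes (CPM, linear to 10 and logarithmic above) by cell class in WB1P (blue) and WB1P-Myc (red). Bars are pooled levels with exact Poisson 95% intervals and open circles are fractions with at least 20 cells of the class, which WB1P endothelial-like cells lacked; Hbegf was found in every class, while Btc reached 59.8 CPM in Schwann-like cells and Egfr 105.1 CPM in fibroblast-like cells of WB1P-Myc.

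Areg had the largest ratio between the models of the ligand genes that reached 50 UMIs in epithelial-like cells. In WB1P epithelial-like cells the fractions had 548.8, 581.8, 447.9 and 331.3 CPM, and the pooled level was 462.0 CPM (433.0 to 492.5) with 477.4 ± 112.9 CPM over fractions (SD, n = 4). In WB1P-Myc epithelial-like cells they had 6.75, 35.7, 26.6 and 10.8 CPM, with a pooled level of 19.7 CPM (15.2 to 25.0). The fractions of the models did not overlap, and the pooled level was 23.5-fold lower in WB1P-Myc (log2 ratio -4.56, interval -4.94 to -4.20). A UMI of Areg was found in 32.1% of the WB1P cells (28.6 to 35.8, exact Clopper-Pearson interval) and in 1.96% of the WB1P-Myc cells (1.22 to 2.99). After thinning every cell to 600 UMIs the shares were 16.3% and 0.655%.

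Areg was unevenly spread over cells. The 68 WB1P epithelial-like cells with the most Areg, the top 10%, held 75.0% of its 943 UMIs and 19.3% of all UMIs of the class. A single cell held 134 Areg UMIs and the next 31, and without the 17 cells with 10 or more Areg UMIs the level was 273.2 CPM. In WB1P-Myc 2 cells held 45 of the 67 Areg UMIs, and without them the level was 6.49 CPM, so it stayed lower than in WB1P with the richest cells of both models left out.

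In the Dlk1 cluster Areg was at 19.0 CPM (12.5 to 27.6), which did not differ from the WB1P-Myc epithelial-like level beyond counting error (log2 ratio -0.05, -0.75 to 0.61), and in Schwann-like cells at 6.62 CPM (4.50 to 9.40).

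Areg was also found in macrophage-like cells. Its level there was 134.5 CPM in WB1P (210.6, 84.0 and 128.1 CPM in fractions 2 to 4, fraction 1 having 2 such cells) and 75.7 CPM in WB1P-Myc (103.9, 14.8, 101.7 and 85.0 CPM). The fractions overlapped, and the log2 ratio of -0.83 (-1.26 to -0.40) stayed short of 2-fold. It passed 2-fold in size in the MiSeq run (-1.34), without WB1P fraction 3 (-1.10) and without WB1P-Myc fraction 1 (-1.03) or 3 (-1.004), and was -0.48 without WB1P fraction 2 and -0.47 without WB1P-Myc fraction 2. Within WB1P the macrophage-like level was 3.44-fold under the epithelial-like level, while within WB1P-Myc it was 3.85-fold above it (log2 ratio 1.95, 1.48 to 2.42), although fraction 2 of the macrophage-like cells, at 14.8 CPM, lay within the range of the epithelial-like fractions. Areg was unevenly spread here too. In WB1P 2 macrophage-like cells held 40 of its 89 UMIs, and without them the level was 75.2 CPM. In WB1P-Myc 3 such cells held 33 of 98 UMIs, and without them the level was 50.6 CPM. With all WB1P macrophage-like cells, Areg was at 29.1% of its epithelial-like level, Epcam at 3.29%, Krt8 at 5.14%, Krt18 at 5.83% and Wfdc18 at 7.07%. The part of free epithelial RNA in the Areg level was not tested. Areg UMIs were found in 6.63% of WB1P and 3.43% of WB1P-Myc macrophage-like cells. At a clustering resolution of 0.6 a group of 93 cells with T or NK markers split off from them, with Areg at 264.8 CPM from 5 UMIs in 16 WB1P cells and 116.2 CPM from 14 UMIs in 77 WB1P-Myc cells. Fraction 3 carried these values, with 1198 CPM in WB1P, where fractions 2 and 4 had no UMI and fraction 1 no cell, and 346.7 CPM in WB1P-Myc, where the others had 64.9, 0 and 0 CPM. Fibroblast-like cells had 30.8 CPM in WB1P and 5.20 CPM in WB1P-Myc, from 18 and 5 UMIs. The WB1P value was 6.67% of the epithelial-like level, beside 2.92% to 4.84% for Epcam, Krt8, Krt18 and Wfdc18. Endothelial-like cells had none, which allows up to 49.5 and 17.2 CPM.

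Hbegf, whose product also serves as the receptor of diphtheria toxin in humans, was found in every class. In WB1P epithelial-like cells its fractions had 1859, 1146, 1223 and 913.7 CPM and the pooled level was 1121 CPM (1075 to 1168). In WB1P-Myc epithelial-like cells they had 166.5, 146.6, 193.9 and 177.5 CPM and the pooled level was 171.9 CPM (158.2 to 186.4). All WB1P fractions lay above all WB1P-Myc fractions, and the level was 6.52-fold lower in WB1P-Myc (log2 ratio -2.71, -2.84 to -2.57). Hbegf UMIs were in 60.3% and 26.4% of these cells, and in 37.5% and 8.90% of cells thinned to 600 UMIs. Leaving out the 76 WB1P and 5 WB1P-Myc cells with 10 or more Hbegf UMIs brought the log2 ratio to -2.04.

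Outside the epithelial-like cells Hbegf differed less between the models. Macrophage-like cells had 94.2, 88.2 and 99.2 CPM in fractions 2 to 4 of WB1P and 41.6, 35.4, 55.5 and 23.8 CPM in WB1P-Myc, a log2 ratio of -1.25 (-1.81 to -0.69) with no overlap of fractions. These values were at 8.36% of the epithelial-like level in WB1P, beside 3.29% to 7.07% for Epcam, Krt8, Krt18 and Wfdc18, and at 22.9% in WB1P-Myc, beside 6.13% to 7.21% for the same genes. The part of free RNA in them was not tested. With no upper limit on genes per cell the log2 ratio was -0.64. Fibroblast-like cells had 291.2 CPM in WB1P and 256.0 CPM in WB1P-Myc (log2 ratio -0.19, -0.47 to 0.10). Endothelial-like cells, only 37 and 71, had 907.1 CPM (683.3 to 1181) and 475.4 CPM (378.7 to 589.3). In WB1P the order was epithelial-like, endothelial-like, fibroblast-like and macrophage-like, where the first pair did not differ beyond counting error (log2 ratio 0.31, -0.08 to 0.72). In WB1P-Myc endothelial-like cells came first, then Schwann-like (274.6 CPM), fibroblast-like, epithelial-like, Dlk1 (147.5 CPM) and macrophage-like cells. There the Schwann-like and fibroblast-like levels, and the epithelial-like and Dlk1 levels, did not differ beyond counting error.

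Tgfa, a ligand that binds EGFR alone, was scarce and lay mostly in epithelial-like and Schwann-like cells. WB1P epithelial-like cells had 33.6, 29.97, 18.4 and 16.3 CPM, pooled to 22.5 CPM (16.5 to 30.1), and those of WB1P-Myc had 6.75, 5.10, 3.32 and 3.599 CPM, pooled to 4.69 CPM (2.68 to 7.62). Fractions did not overlap and the level was 4.80-fold lower in WB1P-Myc (log2 ratio -2.26, -3.18 to -1.42). In the MiSeq run (-3.61), with cells thinned to 600 UMIs (-2.43) and without WB1P fraction 2 (-1.97) the gene had under 50 UMIs and the call was lost. These cells held 46 of the 49 Tgfa UMIs of WB1P. In WB1P-Myc the Schwann-like cells held 46 of 65, at 9.83 CPM (17.0, 10.3, 6.89 and 2.76 CPM over fractions), and no UMI was seen in 274 fibroblast-like and 700 macrophage-like cells.

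Btc, which can also activate ERBB4, lay in the Schwann-like cells of WB1P-Myc. Their fractions had 60.2, 56.6, 62.0 and 60.7 CPM, and these cells held 280 of the 302 Btc UMIs of the model. The fractions were tightly grouped and all above those of the epithelial-like cells, which had 5.63, 1.27, 7.76 and 7.197 CPM, a 10.7-fold difference (log2 ratio 3.42, 2.75 to 4.18). Btc UMIs were in 9.49% of Schwann-like and 1.59% of epithelial-like cells, and in 2.75% and 0.187% of thinned cells. The summed level of the 9 Schwann markers was 3399 CPM in these Schwann-like and 498.6 CPM in these epithelial-like cells. The part of this in the epithelial-like Btc level was not tested. The Dlk1 cluster had no Btc UMI, which allows up to 2.11 CPM and sets it at least 28.4-fold lower than the Schwann-like cells. WB1P epithelial-like cells had 11.8 CPM of Btc from 24 UMIs, against 5.57 CPM in WB1P-Myc (log2 ratio -1.08, -2.03 to -0.15), and with 43 UMIs over both models the gene stayed under the minimum for a call. Over all cells of a model Btc was 3.39-fold higher in WB1P-Myc, where the Schwann-like class, with no WB1P cell, carried it.

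Ereg lay in fibroblast-like cells, a class that also held pericyte-named cells (below), unlike its neighbour Areg. WB1P fibroblast-like cells had 86.6, 74.2 and 17.8 CPM in fractions 2 to 4, pooled to 61.7 CPM (43.2 to 85.4), and those of WB1P-Myc had 73.6, 49.4, 35.5 and 26.4 CPM, pooled to 45.8 CPM (33.3 to 61.5). The models overlapped, with a log2 ratio of -0.43 (-1.10 to 0.25) that turned to 1.09 with cells thinned to 600 UMIs. These cells held 36 of the 54 Ereg UMIs of WB1P and 44 of the 50 of WB1P-Myc, although only 14 and 22 cells carried one. The other 18 UMIs of WB1P lay in epithelial-like cells, where the level was 8.82 CPM, and no UMI was found in 1069 epithelial-like cells of WB1P-Myc, a level at least 10.0-fold lower against the limit of 0.880 CPM that a count of 0 allows. Macrophage-like cells of both models had none.

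Nrg1, the one ligand gene of the list whose product binds ERBB3, had 46 UMIs in all, and no class reached 50. In WB1P 17 of its 22 UMIs lay in macrophage-like cells, at 25.7 CPM (5.54, 46.2 and 20.7 CPM in fractions 2 to 4). In WB1P-Myc 14 of 24 lay in fibroblast-like cells, at 14.6 CPM (0, 34.2, 19.7 and 0 CPM over fractions), and 9 in macrophage-like cells, at 6.96 CPM, with intervals that overlapped. Epithelial-like cells held 2 and 1 UMIs, and 1127 Schwann-like cells held none, which allows up to 0.641 CPM.

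Egfr, the receptor of every ligand listed but neuregulin, was highest in fibroblast-like cells of both models. Its fibroblast-like level was 91.7, 55.7 and 77.0 CPM in fractions 2 to 4 of WB1P and 96.6, 121.7, 102.7 and 96.8 CPM in WB1P-Myc. The WB1P-Myc fractions all lay above the WB1P ones, but the log2 ratio of 0.51 (-0.02 to 1.06) was short of 2-fold and its interval held 0. Epithelial-like cells had 13.2 CPM in WB1P, 5.57-fold under the fibroblast-like level, and 9.09 CPM in WB1P-Myc, 11.6-fold under it. The WB1P-Myc epithelial-like fractions had 5.63, 20.4, 6.65 and 4.80 CPM. Without fraction 2 the log2 ratio between models moved from -0.54 (-1.33 to 0.26) to -1.21. A clustering at resolution 0.6 gave 0.23. The MiSeq run gave 2.76, from only 2 WB1P and 15 WB1P-Myc UMIs, so the ratio had no settled direction. The Dlk1 cluster was between the classes, at 23.2 CPM (16.0 to 32.6). The summed level of the 12 fibroblast markers was 1724 CPM in it, against 392.7 CPM in epithelial-like and 48532 CPM in fibroblast-like cells of the same model, and the part of this in its Egfr level was not tested. Schwann-like cells had 3 Egfr UMIs in 1127 cells (0.641 CPM), and macrophage-like cells had none in 700.

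Egfr differed between groups of the fibroblast-like cells, reclustered with 40 principal components. A group of 257 cells was led by Spp1, which encodes the secreted protein osteopontin, and by Acta2 and Tagln, genes of contractile cells. The marker lists named this group pericyte, with Rgs5 at 708.0 CPM. A group of 209 cells was led by Sfrp4, Ly6c1 and Clec3b, with Pi16 at 425.1 CPM, and was named fibroblast. Another 26 shallow cells stayed unnamed, with Rgs5 at 946.3 CPM. Col1a1 was at 6412 CPM in the pericyte-named group and 8326 CPM in the group named fibroblast, and Pdgfra at 123.1 and 479.0 CPM. The name pericyte thus rests on the marker lists. The group also carried collagen mRNA, so pericytes and contractile fibroblasts were not told apart in it. All fibroblast-like levels given above include the pericyte-named cells. Egfr was at 57.7 CPM in the Acta2 group and 141.7 CPM in the Clec3b group (log2 ratio -1.30, -1.82 to -0.78), with the same direction in WB1P (55.4 and 101.0 CPM) and WB1P-Myc (59.2 and 165.3 CPM). The WB1P intervals overlapped (33.9 to 85.6 and 63.3 to 152.9). In WB1P fraction 3 the groups had 56.4 and 56.1 CPM, and the 22 unnamed WB1P-Myc cells had 208.8 CPM from 6 UMIs (76.6 to 454.4). Hbegf was at 323.5 and 182.2 CPM (log2 ratio 0.83, 0.51 to 1.16). The gap was wide in WB1P-Myc (328.4 and 144.0 CPM), while in WB1P (316.0 and 247.9 CPM) the intervals overlapped and fraction 4 was reversed (230.9 and 263.8 CPM). Ereg, at 57.7 and 42.2 CPM from 53 and 25 UMIs, did not differ beyond counting error (log2 ratio 0.45, -0.26 to 1.20).

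Erbb2, the partner receptor, had few UMIs in every class. Epithelial-like cells had 11.2, 13.6, 11.01 and 14.9 CPM in WB1P and 21.4, 20.4, 15.5 and 14.4 CPM in WB1P-Myc, a log2 ratio of 0.44 (-0.24 to 1.15) with overlapping fractions. The ratio turned to -0.38 with all classes other than stroma and leukocytes pooled and to -0.19 with a minimum of 200 genes per cell. Fibroblast-like cells had 10.3 and 13.5 CPM, which did not differ from the epithelial-like levels beyond counting error. Schwann-like cells had 6.62 CPM, 2.70-fold under the epithelial-like cells of the same model, and macrophage-like cells had 0 and 1 UMI.

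Erbb3 lay mostly in epithelial-like and Schwann-like cells, with 3 WB1P-Myc UMIs in the Dlk1 cluster, 4 in fibroblast-like, 4 in macrophage-like and 1 in endothelial-like cells. The WB1P epithelial-like fractions had 0, 13.6, 27.5 and 19.3 CPM, and the class held all 38 Erbb3 UMIs of that model. The WB1P-Myc epithelial-like fractions had 38.3, 45.9, 38.8 and 38.4 CPM and did not overlap them, and the pooled levels of 18.6 and 40.2 CPM gave a log2 ratio of 1.11 (0.58 to 1.67), just past 2-fold. The summed level of the 9 Schwann markers was 126.4 CPM in WB1P and 498.6 CPM in WB1P-Myc epithelial-like cells. It was 3399 CPM in Schwann-like cells, and its part in the Erbb3 levels was not tested. Without WB1P fraction 2 the log2 ratio of Erbb3 was 0.91 and with a mitochondrial limit of 10% 0.54. In the shallower MiSeq run of the same fractions it was 0.19, from only 15 WB1P and 19 WB1P-Myc UMIs. The call for Erbb3 thus rests on the setting. Schwann-like cells had 56.0, 55.8, 63.0 and 55.2 CPM, 1.43-fold above the epithelial-like cells of WB1P-Myc (log2 ratio 0.51, 0.21 to 0.82). The Dlk1 cluster had 2.11 CPM from 3 UMIs, 27.2-fold lower than the Schwann-like cells. Erbb3 UMIs were in 18.5% of Schwann-like cells and 1.20% of Dlk1 cells, although the latter were deeper, with a median of 4652 UMIs against 3178.

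**Figure D2:**
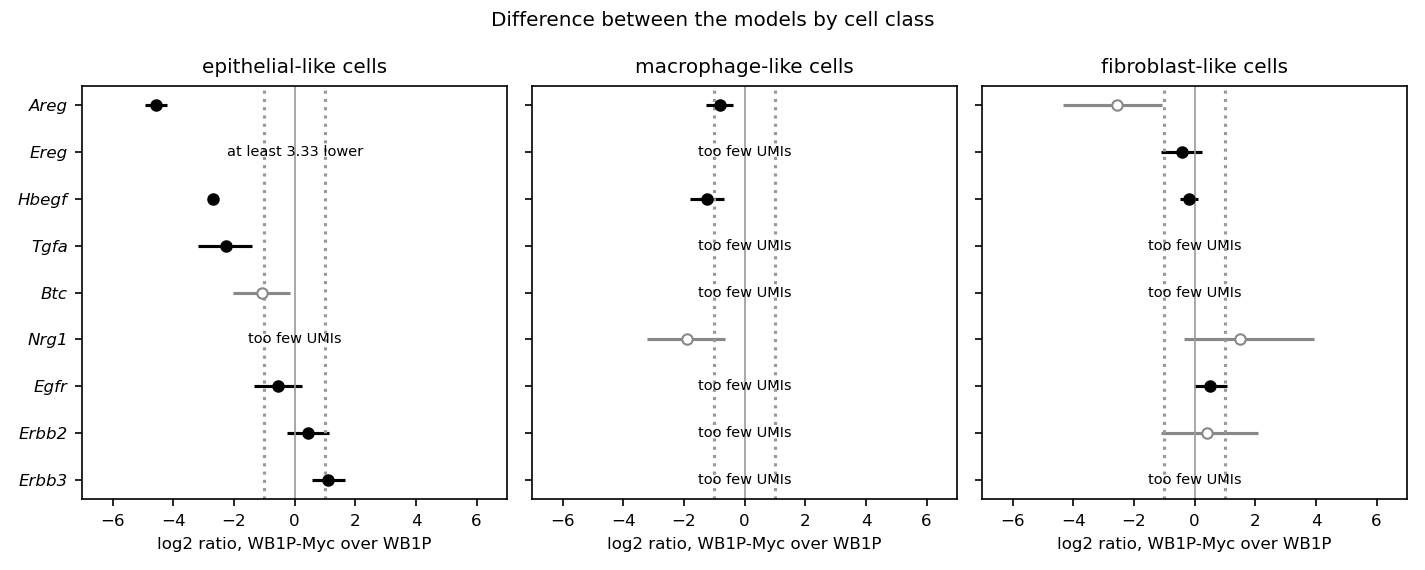
Log2 ratio of WB1P-Myc over WB1P for the 9 genes in epithelial-like, macrophage-like and fibroblast-like cells, with exact 95% intervals for counting error; dotted lines mark 2-fold, filled points have at least 50 UMIs and open points fewer. In epithelial-like cells Areg (-4.56), Hbegf (-2.71) and Tgfa (-2.26) lie left of the line and Erbb3 (1.11) right of it, while Egfr, Erbb2 and, in fibroblast-like cells, Ereg, Hbegf and Egfr lie inside the lines.

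In the epithelial-like cells 6 of the 9 members held at least 50 UMIs, of which 3 ligand genes were past 2-fold lower and 1 receptor gene past 2-fold higher in WB1P-Myc. Of all 8701 genes tested there, 16.1% were past 2-fold lower and 15.4% past 2-fold higher, and the median log2 ratio was -1.40 over the 6 members and 0.02 over all genes. In macrophage-like cells 1 of 2 members tested was past 2-fold lower, where 3.1% of 5168 genes were lower and 5.44% higher. Of the genes past 2-fold in macrophage-like cells 63.7% were higher in WB1P-Myc, against 48.4% with TMM scaling and 50% with DESeq2 size factors. In fibroblast-like cells 0 of 3 members tested were past 2-fold, where 1.97% of 4422 genes were lower and 2.69% higher. If all classes of WB1P-Myc other than stroma and leukocytes were pooled, the log2 ratio was -5.14 for Areg, -2.36 for Hbegf and -1.74 for Tgfa, and Btc turned to 1.42 (0.82 to 2.08) with the Schwann-like cells in the pool.

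A new clustering of all cells at a resolution of 0.6 gave, in place of the class of 1127, a Schwann-like cluster of 523 cells led by Mag and Mbp, genes of myelin, and one of 521 cells led by Hapln1 and Acan, genes of cartilage-like matrix, with a median of 4523 and 2654 UMIs. The 9 members took no part in this clustering, but Erbb4 did. Hbegf had 557.2 CPM in the Hapln1 group (486.9 to 604.5 over fractions) and 100.4 CPM in the Mag group (73.7 to 125.4). Btc had 124.9 CPM (94.2 to 152.7) and 18.6 CPM (10.2 to 32.6), so both ligand genes were higher in the Hapln1 group, 5.55-fold and 6.70-fold, with no overlap of fractions. Areg had 15.7 and 1.08 CPM from 28 and 3 UMIs (log2 ratio 3.87, 2.17 to 6.23), with 15 of the Areg UMIs of the Schwann-like class in 1 cell. Erbb2 had 10.6 and 4.30 CPM from 19 and 12 UMIs (log2 ratio 1.31, 0.19 to 2.48), and Erbb3 differed by 1.56-fold (72.8 and 46.6 CPM), both without overlap of fractions. Erbb4, the other neuregulin receptor, was higher in the Mag group, at 10.0 CPM from 28 UMIs against 2.80 CPM from 5 UMIs. Tgfa, at 10.1 and 9.68 CPM, did not differ beyond counting error (log2 ratio 0.06, -0.89 to 0.97).

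**Figure D3:**
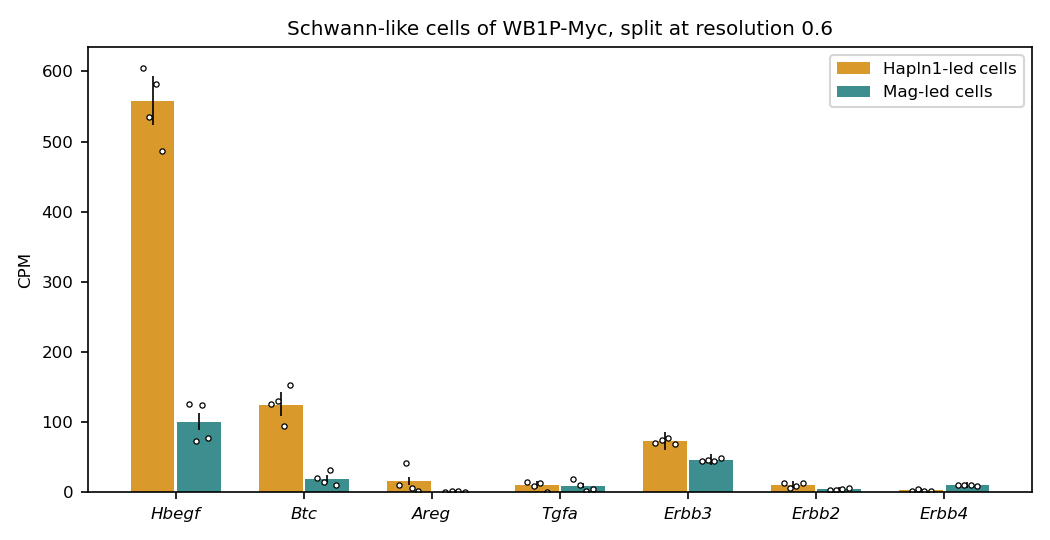
Level (CPM) of 4 ligand and 3 receptor genes in the Hapln1-led and Mag-led clusters of WB1P-Myc, both named Schwann-like, at a resolution of 0.6. The Hapln1-led cluster had 0 Schwann markers among its 10 leading genes. Bars are pooled levels with exact Poisson 95% intervals and circles are the 4 fractions. Hbegf (557.2 against 100.4 CPM) and Btc (124.9 against 18.6 CPM) are higher in the Hapln1-led group in every fraction, and Erbb4 is higher in the Mag-led group.

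Ligand and receptor UMIs were also counted within single cells. In WB1P epithelial-like cells 18 of the 23 cells with an Egfr UMI also had one of Hbegf and 10 had one of Areg, beside 407 and 217 of all 675 cells. In WB1P-Myc 10 of 26 such epithelial-like cells and 22 of 71 fibroblast-like cells had Hbegf, beside 282 of all 1069 epithelial-like and 92 of all 274 fibroblast-like cells. Of 209 Schwann-like cells with an Erbb3 UMI, 24 had one of Btc, beside 107 of all 1127. Betacellulin is not among the ligands of ERBB3 described above. Egfr, the listed receptor of Btc, had a UMI in only 3 Schwann-like cells, 2 of them with Btc, and Erbb4 was not counted. Cells with both genes of these pairs were deeper than their class. For Hbegf and Egfr in WB1P epithelial-like cells the median was 3666 UMIs against 1834, so these counts depend on depth.

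By Pearson's r of log2(CPM + 10) over 32 pools of fraction and class, the genes most like each member among 4587 candidates were found, as a description of pools that share libraries. Egfr was most like Prrx1, Fbn1 and Postn (0.94 each), and Btc most like Ttyh1 (0.92), Scrg1 (0.92) and Cpe (0.87). Erbb3 was most like Col9a2 (0.91), Gm10863 (0.90) and 3110079O15Rik (0.90). Hbegf was most like Crip2 (0.89), Tm4sf1 (0.89) and Mfge8 (0.88), and Areg most like Kcnn4 (0.83), Pla2g7 (0.82) and Vamp8 (0.78). Members with under 200 UMIs were left out.

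The genes around the receptors were taken as 5 lists, which like the members were chosen with earlier results of these data known. They were counted in the main setting only, so how their counts depend on the processing was not tested. Of 13 genes that ERK MAP kinase signalling is known to induce, all were tested in epithelial-like cells and 11 were past 2-fold lower in WB1P-Myc, with a list median log2 ratio of -2.49, where 16.1% of all genes tested were lower. The largest ratios were those of the ETS factors Etv4 (34.3 to 1.47 CPM, log2 ratio -4.55) and Etv1 (44.1 to 2.35 CPM, -4.23) and of the ERK phosphatase Dusp4 (50.5 to 3.23 CPM, -3.97). None of the 3 had overlapping fractions. Fos (-0.87) and Egr1 (-0.46) did not reach 2-fold. In macrophage-like cells 8 genes of this list were tested, of which Egr1 was past 2-fold higher (93.7 to 274.3 CPM) and Plaur past 2-fold lower (406.4 to 173.9 CPM), beside 5.44% of all genes higher and 3.1% lower. In fibroblast-like cells 0 of 8 were past 2-fold, beside 2.69% of all genes higher and 1.97% lower.

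Of 15 genes that restrain the receptors or their signal, 10 were tested in epithelial-like cells and 6 were past 2-fold lower in WB1P-Myc, beside 16.1% of all genes. Spry2, an inhibitor of receptor tyrosine kinase signalling, went from 132.8 to 12.3 CPM (-3.43), Socs5 from 95.5 to 16.4 CPM (-2.54) and Lrig1, which promotes receptor breakdown, from 23.0 to 5.57 CPM (-2.05, with overlapping fractions). Of 18 signal relay genes 17 were tested and 3 were lower, among them Shc1 (-1.61) and Grb2 (-1.10), while the adaptor Gab1 was higher (5.39 to 27.9 CPM, 2.37). These counts are near the shares over all genes, 16.1% lower and 15.4% higher. Of 12 genes of ligand shedding and trafficking 9 were tested, and only Adam9 was past 2-fold (-1.01), with overlapping fractions, beside 16.1% of all genes. Adam17, a sheddase of several of these ligands, had 34.3 and 28.7 CPM (-0.25). None of the 6 other family genes (Egf, Epgn, Nrg2, Nrg3, Nrg4 and Erbb4) reached 50 UMIs in a class compared, and all but Erbb4, with 49 UMIs, had at most 8 in all kept cells. Of the relay, restraint and shedding lists 14, 4 and 8 genes were tested in macrophage-like cells and 12, 5 and 6 in fibroblast-like cells, and 0 were past 2-fold, where few would be at the shares over all genes given above.

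**Figure D4:**
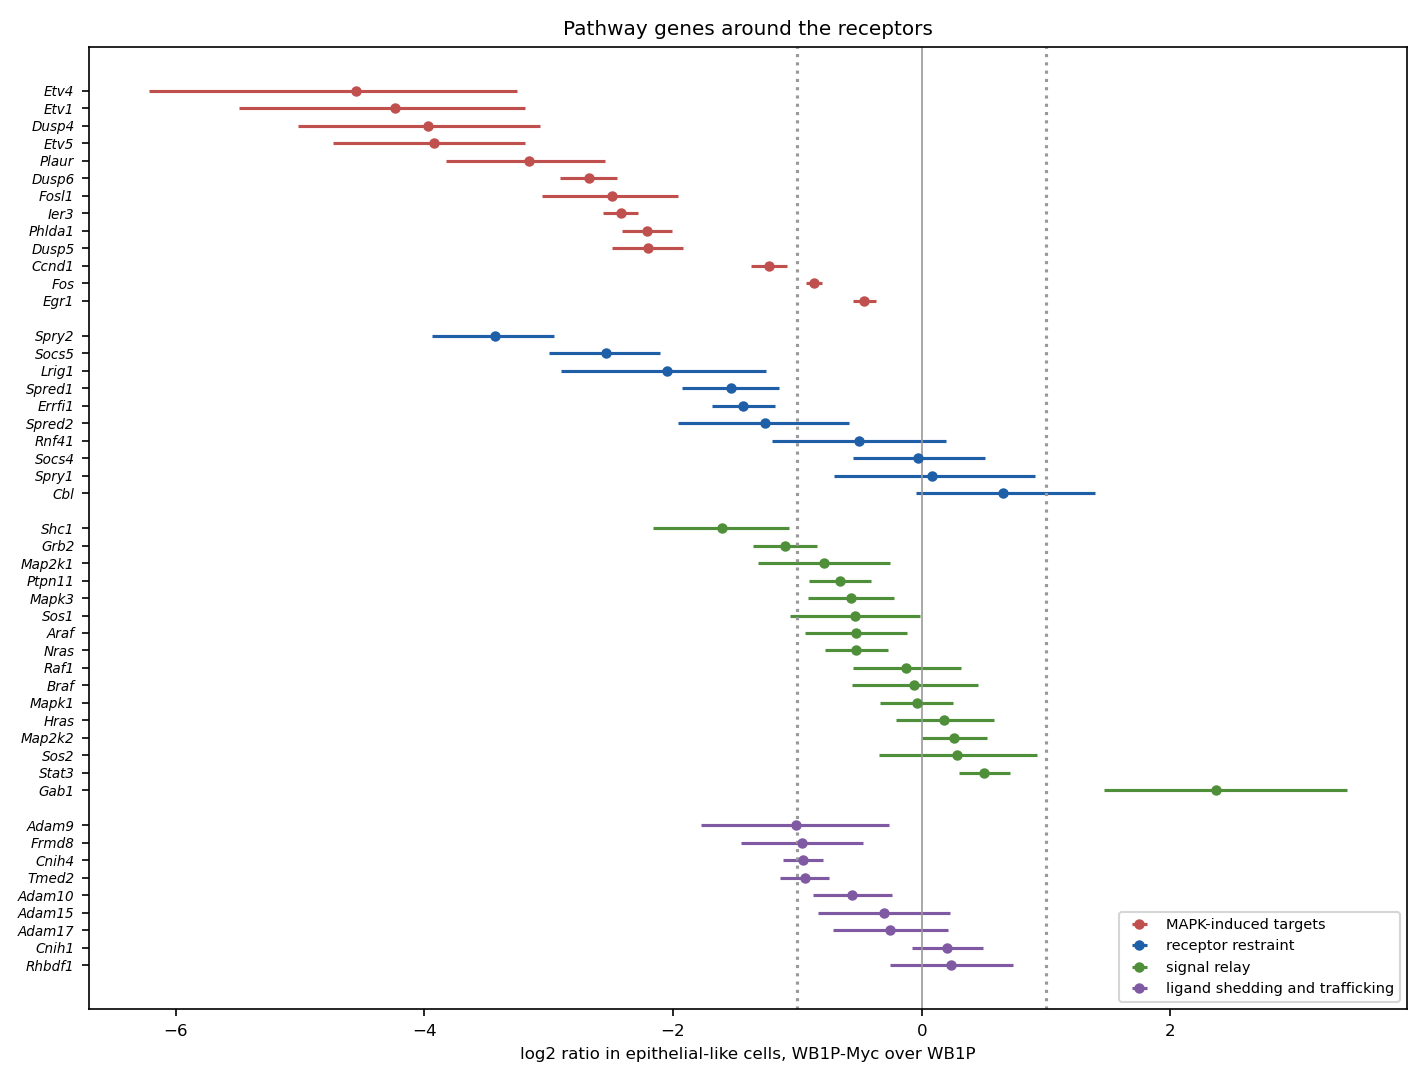
Log2 ratio of WB1P-Myc over WB1P in epithelial-like cells for the genes reported here with at least 50 UMIs in 4 lists of pathway genes, with exact 95% intervals for counting error; dotted lines mark 2-fold. Of the 13 ERK-induced genes 11 lie left of the lower line, from Etv4 (-4.55) to Ccnd1 (-1.23), and Gab1 (2.37) is the one gene right of the upper line.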

How the data were processed

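The authors sequenced Drop-seq libraries of 4 droplet fractions per model in 2 runs (MiSeq and HiSeq) and counted UMIs with dropseq-tools (genome build mm10 per the labels; aligner: not given in the sources used here). They deposited 1 table per fraction and run with whole-number UMI counts per gene for 1000 barcodes, not normalized. Scanpy is named in the submitters' processing notes. The merged table and the MiSeq tables were not used for the main values. Libraries held 256985 to 4960334 UMIs, and a count of 0 was read as a limit of 3 counts.

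From the 8 HiSeq tables, barcodes with 450 to 4000 genes and under 20% mitochondrial UMIs were kept. Counts were scaled to 10000 per cell, log-transformed and clustered in scanpy 1.11.5 (30 principal components, 20 neighbours, leidenalg 0.10.2 at a resolution of 0.3). The leidenalg method, the default of the authors' Scanpy version, replaced the igraph method after cluster tables of both had been seen. Clusters were named from fixed marker lists (at least 3 markers 2-fold over the other cells in 10% of the cluster). UMIs were summed by class and model. Ratios have exact conditional binomial 95% intervals, which cover counting error only. Groups came from the genotype labels, and the 4 fractions are 1 sample per model, so no p-value was computed. edgeR 4.0.16 and DESeq2 1.42.0 gave scaling factors only. The calls were tested on simulated data. These were independent Poisson counts per pool with no clumping of UMIs in single cells, such as Areg had. They cannot check the calls against such clumping, and their values are not given here. Scrublet, run per fraction, marked 21 of 65 cells in WB1P fraction 1 and 1 to 9 in each other fraction; marked cells were kept, and left out as an alternative. Barcodes ending in an undetermined base, 256 among kept cells, were kept.

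All 9 members are described. Pathway genes past 2-fold in epithelial-like cells were named, up to 3 per list and direction, and the 3 genes most like each member with at least 200 UMIs; Fos, Egr1, Plaur, Adam17, Erbb4 and the genes behind the free RNA check were added after their values were seen. The members and lists were chosen with earlier results of these data known. Alternatives are given at the end. Promoters of Ereg, Nrg1, Hbegf and Erbb3 are not shown, and values of 1 gene of the signal relay list are not reported here.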

Additional observations from a re-analysis of the deposited data

Results flagged for a closer look

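In 26 groups of 4 fractions with at least 20 cells each and 20 UMIs of a member, 3 fractions stood away from the other 3 (chance marks about 1 in 20 such groups). Egfr in WB1P-Myc epithelial-like cells was 20.4 CPM in fraction 2, with 4.80 to 6.65 CPM in the others. Erbb3 in the same cells and fraction was 45.9 CPM, with 38.3 to 38.8 CPM in the others. Erbb3 in Schwann-like cells was 63.0 CPM in fraction 3, with 55.2 to 56.0 CPM in the others.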

How the results depend on the processing

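Of the 9 genes, 4 were past 2-fold in epithelial-like cells, 2 in the MiSeq run, 2 with cells thinned to 600 UMIs, 6 with no minimum of 50 UMIs, 5 with all classes outside stroma and leukocytes pooled, and 2 to 4 with 1 fraction left out (2 without WB1P fraction 2, where Erbb3 fell under 2-fold and Tgfa under 50 UMIs). In macrophage-like cells the count was 1 and became 0 with the mean of the fractions' CPM. That mean gives WB1P fraction 1, with 2 such cells, the same weight as each other fraction. The count became 0 with no upper gene limit, 0 with thinned cells and 2 with no minimum of 50 UMIs. It ran from 1 to 2 with 1 fraction left out (2 without WB1P fraction 3 or WB1P-Myc fraction 1 or 3, as Areg passed 2-fold). In fibroblast-like cells it was 0, also with any fraction left out, and 2 with no minimum of 50 UMIs. The cause of these changes was not tested, apart from the lower counts that thinning and left-out fractions bring by construction. In epithelial-like cells the log2 ratios of Areg (-5.60 to -3.70), Hbegf (-2.91 to -2.04) and Tgfa (-3.61 to -1.74) passed 2-fold in size in 25 of 25 alternatives, although Tgfa had under 50 UMIs in the MiSeq run, with thinned cells and without WB1P fraction 2. That of Erbb3 (0.19 to 2.15) did in 18 of 25, with thinned cells under 50 UMIs. It did not at resolution 0.6, with 2000 variable genes, 200 genes, 10% mitochondrial UMIs, the MiSeq run (also under 50 UMIs), the igraph method or without WB1P fraction 2. The sign of Egfr held in 20 and of Erbb2 in 21. The igraph method and leaving out cells with 10 or more UMIs of a gene were chosen after seeing the data. No paired analysis was possible because each model is 1 sample and its fraction numbers name droplet fractions, so no test was fitted. Genes with under 50 UMIs in a class, among them Nrg1, were too shallow for a call. The alternatives cover the members only, and the counts of the pathway lists were not rerun under them.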
